A study of Mus musculus with 8 samples.

Results

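Igfbp1, Ddit4, Sgk1, Fkbp5, Tsc22d3, Lpin1, Angptl4, Sesn1, Klf15 and Errfi1 are liver genes that answer to glucocorticoid hormone, to fasting, or to both. They were chosen by name, as 10 of the 17294 named features with a value above 0, and the choice was made with earlier results in view, in particular the gap between the replicates of LPS-treated transgenic mice. Values that use those libraries are therefore described here without a test. All 10 names occurred once in the table, none shared its row with another gene, and all 10 passed the filter on low values, as did 11463 features in all. Levels are in FPKM, fragment counts scaled for transcript length and for the mapped fragments of the library, as the authors deposited them.

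The 8 whole-liver RNA libraries from male C57Bl/6J mice formed 4 groups of 2 biological replicates: ApoE-Cyp7a1 transgenic mice given LPS, untreated ApoE-Cyp7a1 transgenic mice, wild-type mice given LPS, and untreated wild-type mice. The transgene adds Cyp7a1, which catalyses the slowest step from cholesterol to bile acids, and is described as specific to liver. LPS, the endotoxin of Gram-negative bacteria, was injected daily at 1.5 mg/kg over 7 days. The labels name no vehicle for the untreated mice and give no age, feeding state or hour of collection.

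Glucocorticoids from the adrenal gland cross the hepatocyte membrane and bind the glucocorticoid receptor, which then enters the nucleus and binds short palindromic DNA elements. Fasting lowers insulin, which releases the transcription factor FOXO1 to act on insulin response elements, and raises glucagon and circulating fatty acids. Both signals turn the liver toward glucose production and fat use, and both also restrain the growth kinase mTORC1. Igfbp1 is a classical target of both, and the remaining genes encode proteins that act at different points of these pathways.

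Promoter sequences are shown first, for the genes with the largest LPS differences in transgenic mice. Of the Sgk1 starts, the one with a match to the full glucocorticoid response element is printed. The RefSeq promoter table (GRCm38.p6, the assembly of mm10) held 18 annotated starts for 9 of the 10 genes, Angptl4 being the gene without an entry. The 250 bases before each start are given 5′ to 3′ on the strand of the gene for Igfbp1, Ddit4, Lpin1 and the fifth of 6 Sgk1 starts. Capitals mark a match, on either strand, to the glucocorticoid response element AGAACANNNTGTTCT, its half-site AGAACA, the insulin response element core CAAAACA, the FOXO core GTAAACA or the hypoxia response core ACGTG.
Igfbp1 (chr11:7197537-7197786, plus strand): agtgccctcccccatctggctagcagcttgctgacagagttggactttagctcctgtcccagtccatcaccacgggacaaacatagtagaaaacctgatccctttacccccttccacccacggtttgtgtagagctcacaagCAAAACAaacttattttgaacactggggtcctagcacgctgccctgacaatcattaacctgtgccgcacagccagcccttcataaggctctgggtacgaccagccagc
Ddit4 (chr10:59951771-59952020, minus strand): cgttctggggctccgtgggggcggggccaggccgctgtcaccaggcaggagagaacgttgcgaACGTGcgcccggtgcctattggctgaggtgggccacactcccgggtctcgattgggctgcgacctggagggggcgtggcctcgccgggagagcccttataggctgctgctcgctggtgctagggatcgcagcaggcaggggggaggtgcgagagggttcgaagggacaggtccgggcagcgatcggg
Sgk1 (chr10:21993640-21993889, plus strand): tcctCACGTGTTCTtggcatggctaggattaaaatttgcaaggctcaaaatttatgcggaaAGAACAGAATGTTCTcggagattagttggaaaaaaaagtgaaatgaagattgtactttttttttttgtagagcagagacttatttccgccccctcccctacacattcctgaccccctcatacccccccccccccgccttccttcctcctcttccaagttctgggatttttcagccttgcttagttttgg
Lpin1 (chr12:16610967-16611216, minus strand): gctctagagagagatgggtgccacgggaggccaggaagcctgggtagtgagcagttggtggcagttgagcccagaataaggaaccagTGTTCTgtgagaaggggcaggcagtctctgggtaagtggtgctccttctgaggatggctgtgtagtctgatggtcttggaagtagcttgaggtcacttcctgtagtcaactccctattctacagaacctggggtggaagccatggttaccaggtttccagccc

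The full glucocorticoid response element was matched before this Sgk1 start, 189 to 175 bases upstream, and before only 3 of all 32851 promoters in the table, which is 0.00913%. The half-site was matched before 5 of the 18 starts, in Sgk1, Lpin1 and Tsc22d3, against 16.1% of all promoters. It makes up both arms of the full element, and its first match in the printed Sgk1 sequence overlaps the hypoxia core. The insulin response element core of Igfbp1 lay 108 to 102 bases upstream. It was matched before 1 of the 18 starts, against 5.56% of promoters. The FOXO core was matched before none of the 18 starts and 3.17% of promoters. The hypoxia core was matched before 5 starts, in Ddit4, Errfi1, Fkbp5, Klf15 and Sgk1, against 16.6% of promoters. Ddit4 had no other match, and the Sesn1 starts had no match to any of these motifs. These matches describe letters in a short window and not occupied sites.

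**Figure D1:**
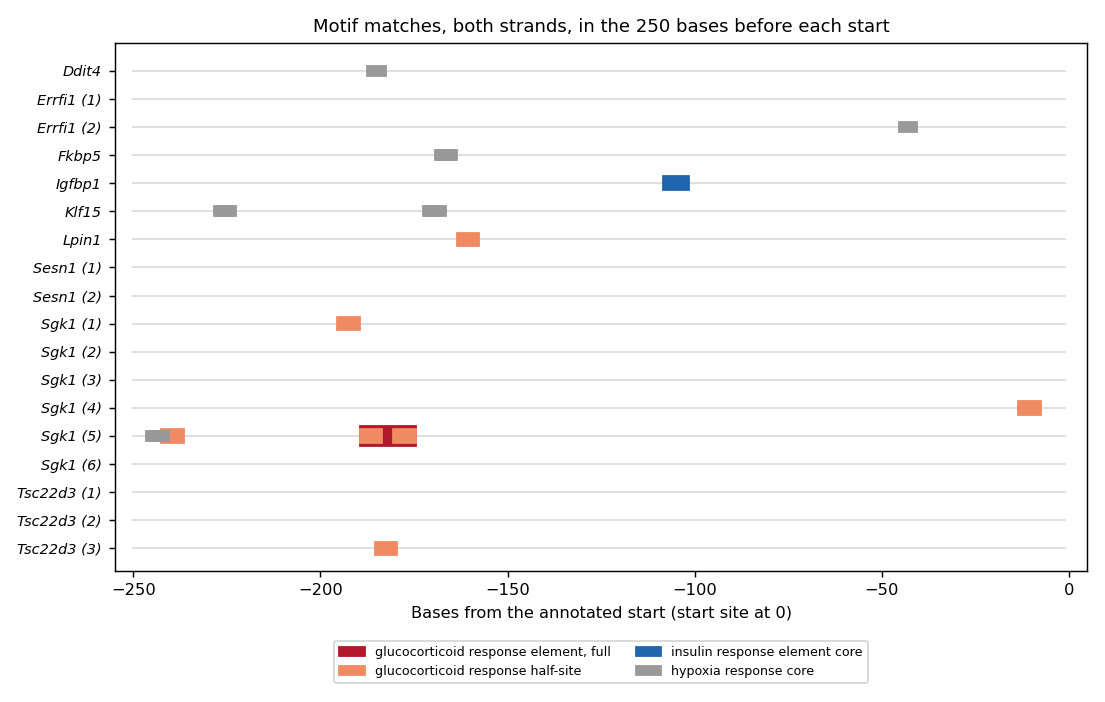
Motif matches in the 250 bases before each of 18 annotated starts of 9 genes, with position in bases from the start on the horizontal axis and 1 line per start. The full glucocorticoid element stands before the fifth Sgk1 start, 189 to 175 bases upstream, and the insulin response element core before Igfbp1, 108 to 102 bases upstream.

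FPKM over all rows summed to 406668 in replicate 1 and 457779 in replicate 2 of transgenic LPS liver, and to 461001 to 580051 in the other 6 libraries. The hepatocyte markers with a value (Apoa1, Ttr, Trf, Cps1, Hnf4a and Cyp2e1) summed to 19742 and 20021 FPKM in transgenic LPS, 25586 and 21778 in untreated transgenic, 24697 and 23879 in wild-type LPS, and 32844 and 24470 in untreated wild-type liver. Alb was listed at 0 in every library. Macrophage markers summed to 916 and 929.7 FPKM in transgenic LPS against 113 and 78.0 in untreated transgenic mice, and to 1081 and 1110 in wild-type LPS against 122 and 56.5 in untreated wild-type mice. Pancreas markers summed to 88.8 and 2.15 FPKM in transgenic LPS, 3646 and 736 in untreated transgenic, 127 and 36.6 in wild-type LPS, and 983 and 49.1 in untreated wild-type liver. Pancreas transcripts were thus present at very different levels, and their part in the values below was not tested. In bulk liver, fewer cells of a type and less RNA per cell cannot be told apart.

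In transgenic mice 8 of the 10 genes had both LPS libraries above both untreated ones, against 31.8% of features. The choice of genes bears on that count. In wild-type mice 7 of the 10 had both LPS libraries below both untreated ones, against 34% of features. Before any LPS, all 10 had a lower group mean in transgenic than in wild-type liver on the log2 scale. Errfi1, lower with LPS in wild-type mice, was the only one of the 10 to pass either test across all genes (adjusted p under 0.05).

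**Figure D2:**
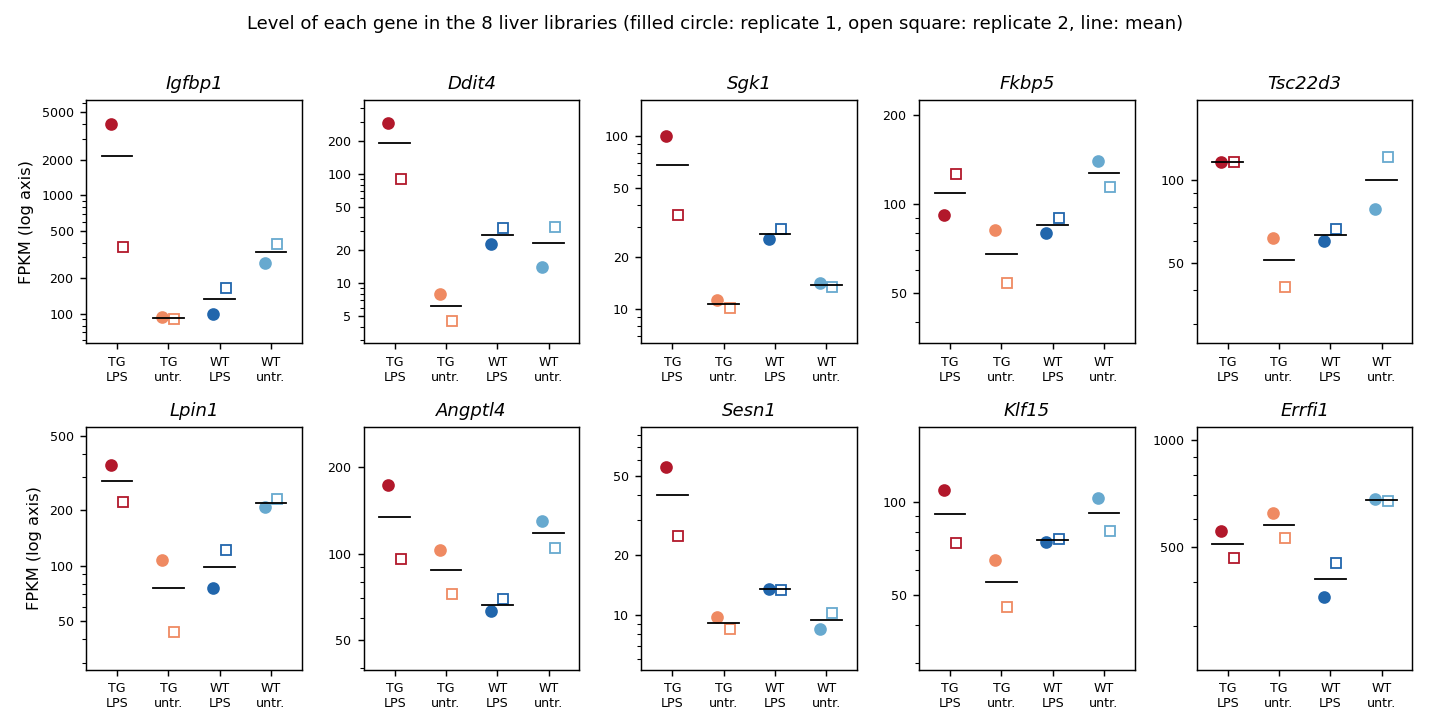
FPKM (log axis) of each of the 10 genes in the 8 libraries, by group: TG is ApoE-Cyp7a1 transgenic, WT is wild type, untr. is untreated, filled circles are replicate 1, open squares replicate 2 and lines group means of 2. Igfbp1 reaches 3961 and 364 FPKM in transgenic LPS liver and 90.6 to 393 FPKM in the other 6 libraries.

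The secreted proteins come first. Igfbp1 encodes a liver-made binding protein that holds insulin-like growth factors in the circulation, and its gene lies on chromosome 11 from 7197782 to 7202546 (GRCm38, as for every gene position here). It was measured at 3961 and 364 FPKM in transgenic LPS, 94.9 and 90.6 in untreated transgenic, 99.4 and 166 in wild-type LPS, and 269 and 393 in untreated wild-type liver. Both transgenic LPS libraries lay above both untreated transgenic ones, whereas both wild-type LPS libraries lay below both untreated wild-type ones. The transgenic LPS libraries differed from each other by 10.9-fold, more than any other gene of the 10. Angptl4, on chromosome 17 from 33773750 to 33781830, encodes an inhibitor of lipoprotein lipase that keeps fat in circulation during fasting. Its levels were 173 and 95.6 FPKM in transgenic LPS, 103 and 72.3 in untreated transgenic, 63.2 and 69.8 in wild-type LPS, and 130.4 and 105 in untreated wild-type liver. The LPS and untreated libraries overlapped in transgenic mice and did not in wild-type mice, where LPS was lower.

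The next genes act around the growth kinase mTOR: Ddit4 and Sesn1 restrain mTORC1, and Sgk1 is activated downstream of mTORC2. Ddit4, on chromosome 10 from 59949669 to 59951834, encodes REDD1, which acts through the TSC complex. It was measured at 295 and 89.3 FPKM in transgenic LPS, 7.98 and 4.52 in untreated transgenic, 22.8 and 32.0 in wild-type LPS, and 14.0 and 32.5 in untreated wild-type liver. Both transgenic LPS values exceeded all 6 others, both untreated transgenic values were below all 6 others, and the wild-type groups overlapped. Sesn1, on chromosome 10 from 41809935 to 41908424, encodes sestrin 1, a leucine-regulated brake on mTORC1 and a known p53 and FOXO target. Its levels were 55.3 and 24.9 FPKM in transgenic LPS, 9.71 and 8.48 in untreated transgenic, 13.5 and 13.4 in wild-type LPS, and 8.54 and 10.2 in untreated wild-type liver. The LPS libraries of both genotypes lay above their untreated libraries, and the untreated groups overlapped. Sgk1, on chromosome 10 from 21882184 to 21999903, encodes a kinase related to AKT that is induced by corticosteroids. It was measured at 101 and 35.2 FPKM in transgenic LPS, 11.3 and 10.2 in untreated transgenic, 25.4 and 29.1 in wild-type LPS, and 14.1 and 13.4 in untreated wild-type liver. Sgk1 and Sesn1 were the 2 genes with higher LPS libraries in both genotypes.

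Fkbp5 and Tsc22d3 are direct readouts of the glucocorticoid receptor. Fkbp5, on chromosome 17 from 28399094 to 28517527, encodes a co-chaperone that lowers the hormone affinity of the receptor. Its levels were 91.7 and 126 FPKM in transgenic LPS, 81.7 and 54.3 in untreated transgenic, 80.1 and 89.5 in wild-type LPS, and 140 and 114 in untreated wild-type liver. It was the gene of the 10 whose replicate 2 stood furthest above replicate 1 in transgenic LPS liver. Tsc22d3, on chromosome X from 140539528 to 140600659, encodes the anti-inflammatory leucine zipper protein GILZ. It was measured at 116 and 117 FPKM in transgenic LPS, 61.5 and 40.9 in untreated transgenic, 59.8 and 66.6 in wild-type LPS, and 78.1 and 122 in untreated wild-type liver. Its replicates in transgenic LPS liver were nearly equal, so this gene did not share the gap of Igfbp1.

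Lpin1, Klf15 and Errfi1 act further downstream. Lpin1, on chromosome 12 from 16535669 to 16610966, encodes a phosphatidate phosphatase that also co-activates fatty acid oxidation genes. Its levels were 349.7 and 219.7 FPKM in transgenic LPS, 107 and 43.9 in untreated transgenic, 75.2 and 121 in wild-type LPS, and 206 and 229 in untreated wild-type liver. Of the 2 genotypes, LPS libraries were higher in transgenic mice and lower in wild-type mice, without overlap in either. Klf15, on chromosome 6 from 90462576 to 90475238, encodes a transcription factor that promotes amino acid breakdown and glucose production in fasting. It was measured at 109 and 73.5 FPKM in transgenic LPS, 64.6 and 45.7 in untreated transgenic, 74.1 and 75.9 in wild-type LPS, and 103 and 80.6 in untreated wild-type liver. Errfi1, on chromosome 4 from 150853919 to 150868892, encodes MIG6, a feedback inhibitor of the EGF receptor. Its levels were 558 and 467 FPKM in transgenic LPS, 623 and 530.0 in untreated transgenic, 362 and 451 in wild-type LPS, and 683 and 675 in untreated wild-type liver. Its transgenic groups overlapped, and both wild-type LPS libraries lay below both untreated wild-type ones.

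The wild-type comparison asked what the LPS course did in mice without the transgene. Its 4 libraries are not the transgenic LPS ones. The genes were chosen with earlier results of these data known, so the wild-type counts may not be independent of the choice. Errfi1 fell to 407 ± 62.4 FPKM with LPS, against 679 ± 5.08 FPKM untreated (SD, n = 2), a log2 change of -0.75 (SE 0.20, limma adjusted p = 0.0316). It was the single gene of the 10 that passed in the lower direction, where 5.41% of 11463 features passed, and none of the 10 passed in the higher direction, where 16.2% did. Lpin1, at a log2 difference of -1.18 (adjusted p = 0.0939), Angptl4, at -0.81 (adjusted p = 0.0976), and Tsc22d3, at -0.62 (adjusted p = 0.132), did not pass although their unadjusted p was under 0.05. Igfbp1, at -1.33 (SE 0.92, adjusted p = 0.339), and Sgk1, at 0.93 (SE 0.41, adjusted p = 0.147), did not pass either.

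Groups that did not overlap were common in wild-type mice. They were lower with LPS in 7 of the 10 genes against 34% of features, and higher in 2 of the 10 against 30.5% of features. The median log2 difference of the 10 was -0.60, and that of all features -0.05. The SE of each gene was pooled over all 4 groups, so the replicate gap in transgenic LPS liver entered the wild-type test. With only the wild-type groups fitted, 5 of the 10 passed (Igfbp1, Angptl4, Lpin1 and Errfi1 lower, Sgk1 higher). Without replicate 1 or without replicate 2 of transgenic LPS, Igfbp1, Angptl4, Sgk1 and Errfi1 passed. Leaving out any 1 of the 4 wild-type or the 2 untreated transgenic libraries ended the call of Errfi1 (log2 change -0.90 to -0.59, adjusted p = 0.058 to 0.249). Tsc22d3 passed without replicate 1 of untreated wild type, and Lpin1 without replicate 1 or without replicate 2 of untreated transgenic mice. No filter and quantile normalization also ended the call of Errfi1, at log2 changes of -0.75 (adjusted p = 0.0509) and -0.51 (adjusted p = 0.0979).

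**Figure D3:**
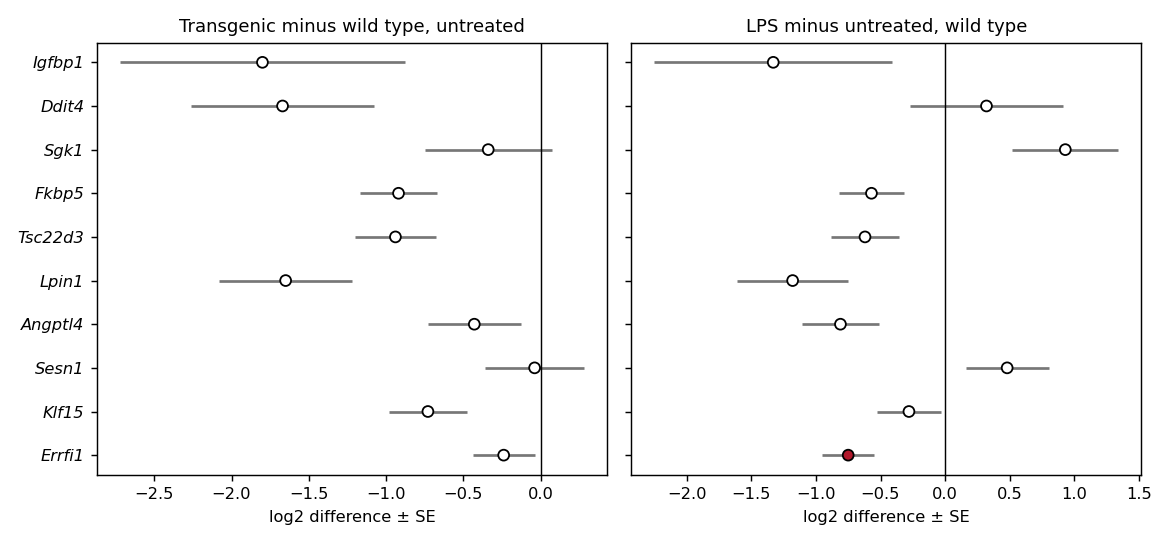
Log2 difference with its SE for each of the 10 genes, in untreated transgenic against untreated wild-type mice (left) and in LPS against untreated wild-type mice (right), 2 libraries per group. The filled point, Errfi1 at -0.75, is the only one past an adjusted p of 0.05, and all 10 points on the left are below 0.

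The genotype comparison in untreated mice asked what the transgene did before any endotoxin. Igfbp1 averaged 92.8 ± 3.05 FPKM in transgenic and 331 ± 87.3 FPKM in wild-type liver (SD, n = 2 each), a log2 difference of -1.80 (SE 0.92, adjusted p = 0.985). Ddit4 averaged 6.25 ± 2.44 FPKM in transgenic and 23.2 ± 13.1 FPKM in wild-type liver, a difference of -1.67 (SE 0.59, adjusted p = 0.77). The steroid-induced genes Fkbp5 and Tsc22d3 differed by -0.92 (SE 0.25, adjusted p = 0.556) and -0.94 (SE 0.26, adjusted p = 0.57). Lpin1 differed by -1.65 (SE 0.43, adjusted p = 0.537) and Klf15 by -0.73 (SE 0.25, adjusted p = 0.752). None of the 10 genes passed, and 0.0611% of features did (7 of 11463 in limma).

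In this comparison 5 of the 10 genes, and 631 of all features, had an unadjusted p under 0.05. Both transgenic libraries were below both wild-type libraries in 9 of the 10 genes, all but Sesn1, against 14.2% of features. The median log2 difference of the 10 was -0.83, and that of all features 0.00. The untreated transgenic libraries are also the baseline of the transgenic LPS difference, so the choice of genes bears on these values. The untreated wild-type replicates had the widest spread of all groups over all features, with an SD of log2 replicate differences of 0.484. Pancreas marker sums were 3646 and 736 FPKM in untreated transgenic and 983 and 49.1 FPKM in untreated wild-type liver, so the genotypes overlapped. Replicate 1 had the higher pancreas sum in every group, and the role of these transcripts was not tested.

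The LPS response of transgenic mice is the comparison the genes were chosen with, so its values are given as a description. The log2 differences between LPS and untreated transgenic mice were 4.54 for Ddit4, 3.68 for Igfbp1, 2.38 for Sgk1, 2.00 for Lpin1 and 1.92 for Sesn1. Tsc22d3 stood at 1.20, Klf15 at 0.71, Fkbp5 at 0.68 and Angptl4 at 0.57. Errfi1 stood at -0.17, and at 0.13 with quantile normalization. Without replicate 2 of untreated transgenic mice Lpin1 stood at 1.36, Klf15 at 0.47, Fkbp5 at 0.39 and Angptl4 at 0.31. Groups did not overlap in the higher direction for 8 of the 10 genes, all but Angptl4 and Errfi1. Non-overlapping groups that were higher with LPS in transgenic and lower with LPS in wild-type mice occurred in 5 of the 10 genes and in 2.75% of features, a count the choice of genes bears on.

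With LPS in both genotypes, transgenic libraries lay above wild-type libraries without overlap in 9 of the 10 genes, all but Klf15, against 22% of features. The log2 differences ran from 0.26 for Klf15 to 3.22 for Igfbp1, with a median of 1.03 against -0.04 over all features. Without replicate 1 of transgenic LPS the difference was 1.50 for Igfbp1, 1.69 for Ddit4, 0.84 for Sesn1, 0.52 for Angptl4, 0.36 for Sgk1 and 0.21 for Errfi1, and that of Klf15 turned to -0.03. Fkbp5, at 0.34 with all libraries, stood at 0.57 without replicate 1 and at 0.11 without replicate 2. This comparison shares the transgenic LPS libraries with the one before it, so the choice of genes bears on its counts too. Igfbp1 averaged 2163 ± 2543 FPKM in transgenic LPS and 133 ± 47.0 FPKM in wild-type LPS liver (SD, n = 2 each), so its SD exceeded its mean in the transgenic group. Tsc22d3 averaged 116 ± 0.315 FPKM in transgenic LPS and 63.2 ± 4.78 FPKM in wild-type LPS liver.

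**Figure D4:**
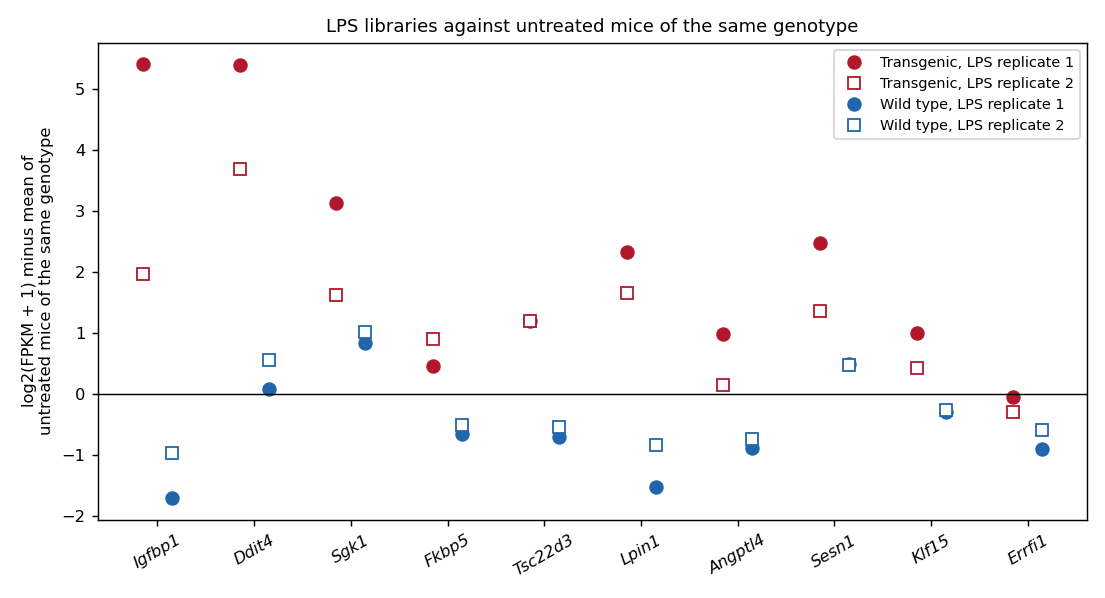
Each LPS library on the log2(FPKM + 1) scale, minus the mean of untreated mice of the same genotype, for the 10 genes; red is transgenic, blue wild type, filled circles replicate 1 and open squares replicate 2. Igfbp1, Fkbp5, Tsc22d3, Lpin1 and Klf15 lie above 0 in both transgenic and below 0 in both wild-type LPS libraries.

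The transgenic LPS replicates were not alike for these genes. The genes were chosen with this gap in view, so the comparisons with all features in this paragraph are description only. Replicate 1 was at least 2-fold above replicate 2 for Igfbp1, Ddit4, Sgk1 and Sesn1, at ratios of 10.9, 3.30, 2.87 and 2.22. That is 4 of the 10 genes against 3.07% of features. On the log2 scale the gap of Igfbp1 was 3.44, the rank 8 of 11463 from the top, and 99.9% of features had a smaller signed gap. The gaps of Ddit4 and Sgk1, at 1.71 and 1.50, exceeded those of 99.4% and 99.2% of features. Angptl4, Lpin1 and Klf15 had gaps of 0.85, 0.67 and 0.57, and Errfi1 one of 0.25. Tsc22d3 had a gap of -0.01 and Fkbp5 one of -0.46. Fkbp5 and Tsc22d3 thus had no excess of replicate 1. The median size of the replicate gap over the 10 genes was 0.76 in transgenic LPS, 0.50 in untreated transgenic, 0.17 in wild-type LPS and 0.30 in untreated wild-type liver, against 0.21, 0.15, 0.10 and 0.27 over all features.

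Both replicates still stood above the untreated transgenic mice for most genes. From replicate 2 alone, the log2 differences from untreated transgenic mice were 3.68 for Ddit4, 1.96 for Igfbp1, 1.66 for Lpin1, 1.63 for Sgk1, 1.36 for Sesn1 and 1.20 for Tsc22d3. The same value was 0.91 for Fkbp5, 0.43 for Klf15, 0.14 for Angptl4 and -0.30 for Errfi1. Hepatocyte marker sums were within 19742 to 20021 FPKM in these replicates and macrophage sums within 916 to 929.7 FPKM. The hepatocyte sum includes Cps1, which is also on the list of other glucocorticoid-induced genes and was higher in replicate 1. Neutrophil sums were 266 FPKM in replicate 1 and 172 FPKM in replicate 2, and pancreas sums 88.8 and 2.15 FPKM. B and plasma cell sums were 61.8 and 37.6 FPKM, adipose sums 2.05 and 16.1 FPKM, and adrenal sums 3.52 and 0.0699 FPKM. The part of these cell types in the gap was not tested.

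**Figure D5:**
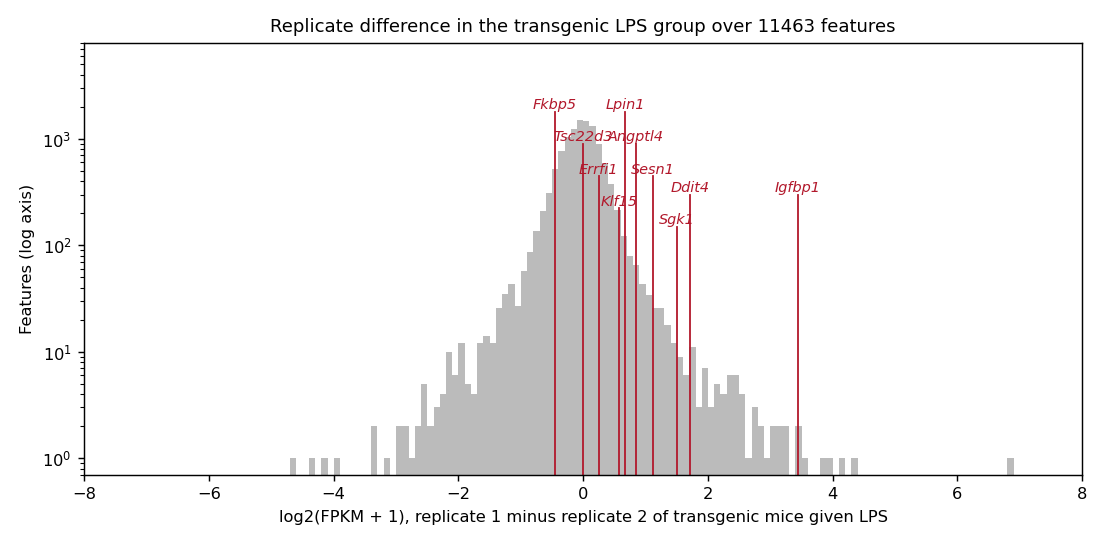
Number of features (log axis) by the log2(FPKM + 1) difference between replicate 1 and replicate 2 of transgenic mice given LPS, over 11463 features in grey, with the 10 genes as red lines whose heights carry no value. Igfbp1 lies at 3.44, Ddit4 at 1.71 and Sgk1 at 1.50, while Tsc22d3 lies at -0.01 and Fkbp5 at -0.46.

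Other genes of the pathways were taken from fixed lists, chosen with earlier results of these data known. Among the receptor, its chaperones and the enzymes of steroid handling, 2 of 14 tested genes fell with LPS in wild type and none rose, where 5.41% of all features fell and 16.2% rose. Hsp90aa1, a chaperone that holds the receptor ready for hormone, fell to 6.29 and 6.08 FPKM with LPS, against 16.3 and 15.4 FPKM untreated (log2 change -1.23, limma adjusted p = 0.000701). Ptges3, its p23 partner, fell by 0.69 on the log2 scale (adjusted p = 0.0144). In transgenic mice Hsp90aa1 had 6.42 and 7.26 FPKM with LPS against 18.5 and 15.8 FPKM untreated, so this chaperone was lower with LPS in both genotypes. The receptor gene Nr3c1, named after its values were seen, was measured at 9.67 and 12.8 FPKM in transgenic LPS against 12.1 and 14.3 FPKM in untreated transgenic mice, which overlapped. In wild-type mice its LPS and untreated libraries overlapped as well.

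Of 19 tested genes among other glucocorticoid-induced genes, 1 rose and 2 fell with LPS in wild type, against the same 16.2% and 5.41% of all features, with a list median of -0.03 against -0.05. Anxa1, the anti-inflammatory annexin 1, rose by 2.07 (adjusted p = 0.00111). Cdkn1a, the cell cycle inhibitor p21, and Gadd45b, a stress signalling protein, fell by 1.42 and 1.19 on the log2 scale (adjusted p = 0.00416 and 0.00577). Gadd45b had 8.46 and 9.62 FPKM in transgenic LPS against 3.18 and 1.70 in untreated transgenic mice, and 3.03 and 3.46 in wild-type LPS against 8.24 and 9.09 in untreated wild-type mice. Gadd45b was thus higher with LPS in transgenic and lower with LPS in wild-type mice, with the transgenic LPS replicates close together. In untreated mice none of the 19 passed for genotype, 13 had transgenic below wild-type libraries without overlap against 14.2% of features, and the median was -0.66 against 0.00. In transgenic mice 15 of the 19 had LPS above untreated libraries without overlap against 31.8% of features, with a median difference of 1.15 against -0.04. Dusp1, Tat and Rgs2, 3 of the 19, had replicate 1 of transgenic LPS at least 2-fold above replicate 2, against 3.07% of features. For 1 of the 19 replicate 1 was at least 2-fold below replicate 2, a direction not counted over all features. Tat, a liver enzyme of tyrosine breakdown long used as a glucocorticoid readout and named here after its values were seen, had 2908 and 1388 FPKM in transgenic LPS, 684 and 463 in untreated transgenic, 632 and 884 in wild-type LPS, and 1403 and 1857 in untreated wild-type liver. Both transgenic LPS values lay above the untreated transgenic ones, and both wild-type LPS values below the untreated wild-type ones.

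Of 23 tested fasting and FOXO1 genes 1 fell with LPS in wild type, close to the 5.41% of all features, and the list median was -0.37. That gene was Bnip3, a mitophagy receptor, which fell to 109 and 108 FPKM with LPS, against 181 and 219 FPKM untreated (log2 change -0.87, adjusted p = 0.00641). With Bnip3 counted, 18 of the 23 had LPS below untreated wild-type libraries with no overlap, against 34% of features. The others of these did not reach the threshold. In transgenic mice 6 of the 23 were higher and 6 lower with LPS without overlap, against 31.8% and 36.2% of features, with a median of 0.18. Replicate 1 of transgenic LPS was at least 2-fold above replicate 2 for 5 of the 23, namely Ppargc1a, Irs2, Sik1, Txnip and Nnmt, against 3.07% of features. It was at least 2-fold below replicate 2 for 2 of the 23, a direction not counted over all features.

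The mTORC1 and SGK partners had 1 rise and 2 falls with LPS in wild type among 18 tested genes, against 16.2% and 5.41% of features, with a median of -0.23. Akt1 rose by 0.83, while Deptor, an mTOR inhibitor, and Rheb, the small GTPase that activates mTORC1, fell by 0.62 and 0.55 on the log2 scale (adjusted p = 0.0267, 0.0201 and 0.0495). None of the 18 had replicate 1 of transgenic LPS at least 2-fold above replicate 2, where 3.07% of features did, and none had it 2-fold below. At that share, 18 genes are too few to set the list apart from all features. Of 10 tested partners of Igfbp1, Angptl4 and Errfi1, 2 rose with LPS in wild type, near the 16.2% of all features. Gpihbp1, the endothelial anchor of lipoprotein lipase, rose to 52.8 and 59.1 FPKM with LPS, against 27.2 and 24.9 FPKM untreated (log2 change 1.07, adjusted p = 0.00159), and Hbegf, an EGF receptor ligand, rose by 1.09 (adjusted p = 0.00581). Endothelial marker sums moved with Gpihbp1, at 178 and 195 FPKM in wild-type LPS against 60.8 and 56.7 FPKM in untreated wild-type mice, and their part was not tested.

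Among 23 tested paralogs of the 10 genes, 4 rose and 1 fell with LPS in wild type, shares near the 16.2% and 5.41% of all features. Igfbp3, the main carrier of insulin-like growth factors in blood, rose to 60.0 and 54.1 FPKM with LPS, against 14.4 and 13.0 FPKM untreated (log2 change 1.98, adjusted p = 0.000516). Igfbp7, Tsc22d4 and Angptl6 rose by 1.79, 1.34 and 1.24 (adjusted p = 0.00469, 0.00291 and 0.0404). Sgk2, a kinase paralog of Sgk1 named after its values were seen, fell by 1.09 on the log2 scale (adjusted p = 0.0158). Igfbp3 was higher with LPS in both genotypes, at 40.4 and 47.5 FPKM in transgenic LPS against 17.2 and 11.2 FPKM in untreated transgenic mice, whereas Igfbp1 was lower with LPS in wild-type mice. Igfbp6, Tsc22d2, Sesn2, Klf2, Klf4 and Klf6, which are 6 of the 23, had replicate 1 of transgenic LPS at least 2-fold above replicate 2, against 3.07% of features. Another 2 of the 23 had it at least 2-fold below, a direction not counted over all features. Of 16 tested hypoxia-inducible genes 3 rose with LPS in wild type and none fell, a share near the 16.2% of all features, with a median of 0.12. Adm, the vasodilator adrenomedullin, rose by 1.43, the hexokinase gene Hk2 by 1.22 and the collagen hydroxylase gene P4ha1 by 0.46 (adjusted p = 0.00122, 0.00457 and 0.0448). None of the 16 had replicate 1 of transgenic LPS at least 2-fold above replicate 2, where 3.07% of features did, and 1 had it at least 2-fold below. At that share, 16 genes are too few to set the list apart from all features. Across all 7 lists, no tested gene passed for genotype in untreated mice in limma.

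Likeness to the genes with the largest transgenic LPS differences was measured as Pearson r of log2(FPKM + 1) over the 8 libraries, with no test, since the libraries fall into treatment groups. Closest to Igfbp1 were Prrc2c (r = 0.988), the row shared by Hipk3 and Mir1902 (r = 0.986) and Mpzl2 (r = 0.979). Mpzl2 had 85.6 and 30.2 FPKM in transgenic LPS, 22.3 and 22.9 in untreated transgenic, 23.7 and 24.8 in wild-type LPS, and 28.0 and 32.8 in untreated wild-type liver. Closest to Ddit4 were Slc10a6 (r = 0.991), Nrg4 (r = 0.973) and Dpep1 (r = 0.971). Slc10a6, a carrier of sulfated steroids, had 7.53 and 3.99 FPKM in transgenic LPS, 0.329 and 0.193 in untreated transgenic, 1.26 and 1.51 in wild-type LPS, and 1.07 and 1.44 in untreated wild-type liver. These orders of values follow from choosing the features by r over the same libraries.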

How the data were processed

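Whole-liver RNA of 8 mice was sequenced after a stranded mRNA library preparation, per the labels' protocols. The authors deposited 1 table of FPKM values with 24545 rows and 1 column per library, and the submitters' processing notes name TopHat2 2.1.0, Bowtie2 2.2.6, Cufflinks, Cuffdiff 2.2.1 and build mm10. For annotation and filters, and for how libraries were scaled, the notes used here hold no entry. No counts were used, and the lowest values showed a shared step in too few libraries (6.6% to 44.4% of ratios in the densest window) to recover reads, so depth is unknown and no counting interval is given. All 8 columns matched a sample.

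For repeated names the row with the highest sum was kept, and rows with identical values were joined. The 11463 features that reached 1 FPKM in 2 or more libraries were fitted as log2(FPKM + 1) in limma 3.58.1 under R 4.3.3, with 1 mean per group, trended moderation, 2-sided tests and Benjamini-Hochberg adjustment at 0.05 over all features. Fold changes on this scale understate changes of low genes. The design text calls the replicates biological without naming animals, so p-values measure the spread between these samples, at n = 2 per group. The procedure was checked on simulated data in which each gene had the same spread in all groups. Such data cannot show how the test behaves where groups differ in spread, as they did here. Companion genes were named by a rule: up to 4 per list that passed, by size of change, and the 3 features most like Igfbp1 and Ddit4. The 10 genes and all lists were chosen with earlier results of these data known. Gene positions are from GENCODE vM21 and promoters from RefSeq. The values of 1 gene of the fasting list are not reported here.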

Additional observations from a re-analysis of the deposited data

Results flagged for a closer look

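Among the genes given by name and value here, 13 had both LPS libraries on opposite sides of the untreated libraries in the 2 genotypes, above them in transgenic and below them in wild-type mice. The same held for 2.75% of all 11463 features, for 5 of the 10 genes, and for 14 of the 123 tested genes of the companion lists, not all of which are named. The 13 include genes chosen or named with their values known and features picked for likeness to Igfbp1. Their count can therefore not be set against the 2.75%. Whether the LPS response differed between genotypes was not tested, because the genes were chosen with the transgenic LPS libraries in view. Subtracting the wild-type LPS difference from the transgenic one gave 5.02 on the log2 scale for Igfbp1, 3.17 for Lpin1, 1.82 for Tsc22d3, 1.26 for Fkbp5 and 0.99 for Klf15. Among the companion genes it gave 2.94 for Tat, 2.76 for Gadd45b, 2.37 for Ppargc1a, 1.95 for Cdkn1a and 1.19 for Bnip3. The 3 features nearest to Igfbp1 were picked for likeness to it, and stood at 1.45 for Mpzl2, 0.74 for the row of Hipk3 and Mir1902 and 0.44 for Prrc2c. The 2 genotypes did not start from the same untreated level. Group means in transgenic LPS and in untreated wild-type liver were 2163 and 331 FPKM for Igfbp1 and 285 and 217 for Lpin1. They were 116 and 99.8 FPKM for Tsc22d3, 109 and 127 for Fkbp5, and 91.5 and 91.7 for Klf15.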

How the results depend on the processing

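The count of the 10 genes that passed with LPS in wild type was 1. It was 0 with no filter, 0 with quantile normalization and 5 with only the 2 groups compared, and it ran from 0 to 4 when each library was left out in turn. The count for genotype in untreated mice was 0 under every alternative run. The labels do not say that equal replicate numbers mark a shared origin. Over 6 pairs of groups, replicate differences correlated across features at r = 0.043 to 0.459, above 0.1 in 4 and not in all, so the numbers were not taken as pairs. With the replicate block the counts were 1 and 0. With each library left out, the LPS difference of Ddit4 in wild type ran from -0.26, without replicate 1 of untreated wild type, to 0.90. For genotype in untreated mice, Sesn1 stood at 0.08 without replicate 2 of untreated wild type and 0.05 without replicate 2 of untreated transgenic mice, in a range from -0.16 to 0.08. The cause of these shifts was not tested. Quantile normalization put the median of all features at -0.12 for LPS in wild type, against -0.05 without it, and the 10 genes at a median of -0.34. With 2 libraries per group and unknown depth, small differences could not be resolved.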

Other observations

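Several genes of the fasting list that glucagon or low insulin is known to move were read by library after their values were seen. Ppargc1a, a coactivator of glucose production and mitochondrial genes, had 22.9 and 4.73 FPKM in transgenic LPS, 1.81 and 1.78 in untreated transgenic, 3.21 and 3.30 in wild-type LPS, and 4.67 and 3.85 in untreated wild-type liver. Irs2, an insulin receptor substrate that FOXO1 induces, had 36.7 and 5.98 FPKM in transgenic LPS and 4.41 to 8.58 FPKM in the other 6 libraries. Sik1, a kinase induced by cyclic AMP, had 56.5 and 9.81 FPKM in transgenic LPS and 3.76 to 10.02 FPKM elsewhere. Replicate 1 was the highest of the 8 libraries for these 3 genes. Replicate 2 lay within the range of the other 6 libraries for Irs2 and Sik1, and just above it for Ppargc1a.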
